A study of Homo sapiens with 9 samples.

Results

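The genes described here are TXNIP, the arrestin-domain genes ARRDC1, ARRDC2, ARRDC3 and ARRDC4, and the transcription factor genes MLXIP (MondoA) and MLXIPL (ChREBP). They were taken by name, and all 7 were among the 26830 genes of the files and among the 13365 with enough counts to be tested. The study sequenced poly(A) RNA of NB4 cells kept for 48 h with FB23-2, FB23 or the solvent DMSO. NB4 is known as a human acute promyelocytic leukaemia line, while the cell type label reads acute monocytic leukemia. Each group had 3 libraries, 9 in all, and the series title gives inhibition of FTO, an RNA demethylase, as the purpose of both compounds. The labels give no dose, so the compounds were set side by side at the same time only, and any difference is between these treatments as given. Nor do they tell whether replicates were separate cultures, so the spread behind each p-value could be technical only.

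Library totals ran from 12360291 to 38410750 expected counts, both in FB23 libraries. The labelled cell line and cell type were checked against markers. MPO and CTSG, granule genes of promyelocytes, had 0 counts in every library, and the 5 granule markers summed to at most 1.77 TPM (a level scaled for gene length and library total). The 7 erythroid markers, globin genes among them, summed to between 3830 and 4390 TPM with FB23-2, 30900 to 33200 TPM with FB23 and 27000 to 28500 TPM with DMSO, and all 7 were called in FB23-2 against DMSO. The 7 monocyte and granulocyte markers summed to 15.9 to 17.1, 6.14 to 7.06 and 9.53 to 10.9 TPM in the same order of groups, with FCN1 at 0 counts in every library and 2 of the 7 called. The higher sum with FB23-2 lay mostly in LYZ, at 11.4, 2.91 and 4.35 TPM on average. ITGAM went the other way, at 3.63 TPM with FB23-2, 2.54 with FB23 and 4.45 with DMSO. The 5 lymphoid markers summed to 30.6 to 35.4, 4.15 to 5.17 and 4.87 to 6.86 TPM, nearly all of it CD3D, the only one called, while MS4A1 had 0 counts. The myeloid surface markers CD33 and CD68 summed to 75.4 to 81.2, 43.0 to 45.2 and 48.2 to 50.4 TPM. Both were called, CD68 as higher with FB23-2 and CD33 as lower on the scaled counts used in the test. As a scale for these counts, 82.6% of all tested genes were called in FB23-2 against DMSO. The rise of the sum with FB23-2 lay in CD68, while CD33 was about level with DMSO in TPM. CD33 averaged 44.4, 38.8 and 44.0 TPM, and CD68 33.5, 5.46 and 5.06 TPM. The granule and globin levels go against a promyelocytic line. The globin levels and the low monocyte and granulocyte sums go against the labelled monocytic type. The identity of the cells is thus in doubt, and NB4 is used here as the label only. The part of these shifts in the results below was not tested. In bulk RNA, more cells expressing a gene and more RNA per cell cannot be told apart.

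TXNIP encodes a protein with an arrestin fold that binds reduced thioredoxin and draws glucose transporters away from the cell surface. The ARRDC proteins share that fold, and most carry short motifs that recruit ubiquitin ligases of the NEDD4 type to membrane cargo. MondoA and ChREBP are sensors of glucose phosphates that bind DNA together with MLX at carbohydrate response elements, and TXNIP and ARRDC4 are their best known targets.

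The promoters shown are those of TXNIP and ARRDC4, the best known targets, and of MLX, the DNA-binding partner. TXNIP and ARRDC4 rose and MLX fell with both compounds. In profile over the 9 libraries, TXNIP was nearer to ARRDC3 and ARRDC1 than to ARRDC4. The root mean square differences of centred log2 CPM were 0.14, 0.15 and 0.30. Each sequence is the 250 bases before the gene start, from RefSeq on GRCh38.p14, written 5′ to 3′ on the gene's own strand. In TXNIP (chr1:145996580-145996829, minus strand) the capitals mark the only match to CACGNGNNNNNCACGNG, a pair of E-box-like elements spaced as in a carbohydrate response element, which ran from 88 to 72 bases before the start. In ARRDC4 (chr15:97960453-97960702, plus strand) and MLX (chr17:42566850-42567099, plus strand) the capitals mark the E-box CACGTG, at 210 to 205 and at 50 to 45 bases before the start.
TXNIP: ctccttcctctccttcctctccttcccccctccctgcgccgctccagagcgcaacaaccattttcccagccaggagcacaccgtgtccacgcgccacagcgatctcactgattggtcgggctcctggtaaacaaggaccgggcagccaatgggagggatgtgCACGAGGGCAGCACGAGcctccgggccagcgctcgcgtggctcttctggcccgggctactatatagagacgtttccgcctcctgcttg
ARRDC4: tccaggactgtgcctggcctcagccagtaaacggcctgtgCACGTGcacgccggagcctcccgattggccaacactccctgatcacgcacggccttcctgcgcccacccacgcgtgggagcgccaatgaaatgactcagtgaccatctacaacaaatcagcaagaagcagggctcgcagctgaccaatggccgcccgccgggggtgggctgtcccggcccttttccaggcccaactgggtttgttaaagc
MLX: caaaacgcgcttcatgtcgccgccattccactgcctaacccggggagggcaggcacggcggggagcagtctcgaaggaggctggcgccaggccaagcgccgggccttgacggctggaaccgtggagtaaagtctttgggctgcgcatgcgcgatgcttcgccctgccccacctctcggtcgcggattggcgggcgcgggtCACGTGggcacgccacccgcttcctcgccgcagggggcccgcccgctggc
A window was found for all 7 genes and MLX. Both strands were searched, and no match of the paired motif shown overlaps a CACGTG or CCAAT match. The paired motif was in 0.0456% of 35116 RefSeq promoter windows of this length, and CACGTG in 6.34%. Of the genes shown, CACGTG stood before ARRDC4, which rose, and before MLX, which fell. CCAAT, in 32.0% of windows, was matched in TXNIP on both strands and at 3 places in ARRDC4. It was also present in a window of ARRDC1, ARRDC2, ARRDC3, MLXIP and MLX. Neither E-box motif was found in the windows of ARRDC1, ARRDC2, ARRDC3, MLXIP and MLXIPL, which says only that these letters are not there.

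TXNIP was the most abundant of the 7 genes in every group, and it rose with both compounds. TXNIP (chromosome 1, 145992435 to 145996600, minus strand, GENCODE 29 on GRCh38) was measured at 218, 204 and 235 TPM with FB23-2, 102, 100.4 and 95.6 TPM with FB23, and 63.1, 69.1 and 68.2 TPM with DMSO. The 3 groups did not overlap, with FB23 between the other two and nearer to DMSO. In CPM (counts scaled by library total and TMM factor, the scale of the test) the means were 360 ± 16.9 with FB23-2, 192 ± 0.949 with FB23 and 131 ± 4.59 with DMSO (SD, n = 3 each). TXNIP rose 2.75-fold with FB23-2 against DMSO, a log2 fold change of 1.46 ± 0.05 (SE; edgeR, adjusted p = 6.15e-15). With FB23 against DMSO it rose 1.47-fold, by log2 0.55 ± 0.05 (edgeR, adjusted p = 6.11e-07). Between the compounds, it was 1.88-fold higher with FB23-2 than with FB23, by log2 0.91 ± 0.04 (edgeR, adjusted p = 3.20e-12).

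**Figure D1:**
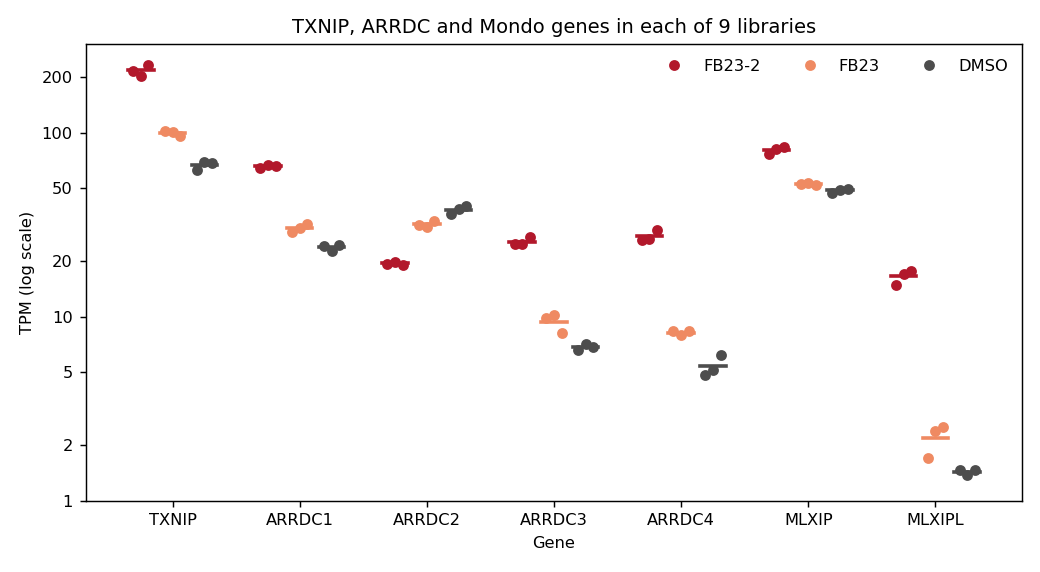
Levels of the 7 genes in TPM (log scale) in each of the 9 libraries, with FB23-2 left, FB23 in the middle and DMSO right for each gene; points are libraries and lines are group means (n = 3). In TPM, for 6 genes FB23-2 is highest and DMSO lowest, as for TXNIP at 219, 99.2 and 66.8 TPM, while ARRDC2 runs the other way at 19.5, 31.7 and 38.2 TPM.

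All 7 genes were called with FB23-2 against DMSO, 6 higher and 1 lower, in a comparison where 82.6% of tested genes were called, 41.3% higher and 41.3% lower (edgeR, adjusted p under 0.05). With FB23 against DMSO 6 were called, 5 higher and 1 lower, where 23.5% of tested genes were called, 12.3% higher and 11.2% lower. On the TPM scale the background for FB23-2 against DMSO was 50.6% higher and 31.9% lower. The background for FB23 was 11.2% higher and 5.74% lower with no filter on low counts, and 14.7% and 20.9% with trends on GC content and length removed. With FB23-2 against FB23 all 7 were called, 6 higher and 1 lower, where 81.5% of tested genes were called, 40.4% higher and 41.1% lower (49.5% and 30.9% on the TPM scale). A call with FB23-2 was common among all genes, and a call with FB23 less so. Past a log2 fold change of 1 either way there were 6 of the 7 genes with FB23-2 against DMSO (36.9% of tested genes), 0 with FB23 against DMSO (2.28%) and 3 between the compounds (32.2%). The members' median log2 fold change was 1.46 with FB23-2 against DMSO, where that of all tested genes was 0.01, and 0.44 with FB23, where that of all tested genes was 0.00. Both comparisons use the same DMSO libraries, so their values are given side by side and not as independent of each other. Every gene had all 3 FB23-2 libraries on 1 side of the DMSO libraries, as did 84.2% of tested genes (42.1% above and 42.1% below). The same held for FB23 and DMSO, as for 37.9% of tested genes (19.1% above and 18.8% below), and for FB23-2 and FB23, as for 81.2% (40.4% above and 40.8% below).

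**Figure D2:**
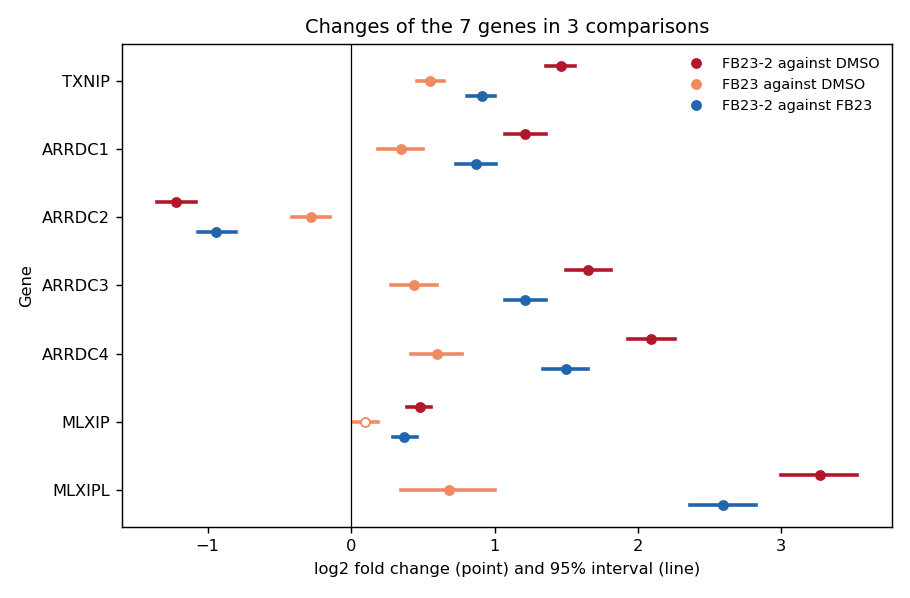
Log2 fold changes of the 7 genes (points) with 95% intervals (lines) for each compound against DMSO and for FB23-2 against FB23, 3 libraries per group; filled points have an edgeR adjusted p under 0.05. ARRDC2 alone lies left of 0, and only MLXIP with FB23 (0.10, interval 0.02 to 0.19) is open. MLXIP turns negative in both FB23-2 comparisons when GC and length trends are removed (-0.22 and -0.29).

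ARRDC4 showed the largest fold change among the 5 arrestin-domain genes with FB23-2, while with FB23 it and TXNIP were close (0.60 and 0.55, and 0.56 and 0.57 without DMSO replicate 2). ARRDC4 is the closest relative of TXNIP in glucose control, since it too lowers glucose uptake (chromosome 15, 97960698 to 97973838). It was measured at 26.13, 26.29 and 29.55 TPM with FB23-2, 8.35, 7.92 and 8.34 TPM with FB23, and 4.81, 5.12 and 6.22 TPM with DMSO. No libraries overlapped between groups, although DMSO replicate 3 stood above its own group. ARRDC4 rose by log2 2.09 ± 0.08 with FB23-2 (4.26-fold, edgeR adjusted p = 5.81e-14) and by 0.60 ± 0.08 with FB23 (1.51-fold, adjusted p = 9.11e-05). FB23-2 was above FB23 by 1.50 ± 0.07 (edgeR, adjusted p = 2.00e-12).

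ARRDC3, an adaptor in the sorting of adrenergic receptors and of integrin beta 4, rose less than ARRDC4 with FB23-2 (chromosome 5, 91368724 to 91383359). Its levels were 24.7, 24.8 and 27.1 TPM with FB23-2, 9.85, 10.2 and 8.13 TPM with FB23, and 6.58, 7.07 and 6.81 TPM with DMSO. FB23 replicate 3 was the FB23 library nearest to DMSO, and still above all 3 of them. The log2 fold change was 1.65 ± 0.07 with FB23-2 (3.14-fold, edgeR adjusted p = 5.49e-13) and 0.44 ± 0.08 with FB23 (1.35-fold, adjusted p = 0.000627), and between the compounds 1.21 ± 0.07. ARRDC3-AS1, a long noncoding RNA gene on the other strand, shares 3011 bases of its span with ARRDC3. It was not called in any comparison, and had 13 to 28 counts per library, against 313 to 1587 for ARRDC3.

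ARRDC1, which buds small vesicles from the plasma membrane together with TSG101, rose less (chromosome 9, 137605654 to 137615360). It was measured at 63.9, 66.7 and 66.3 TPM with FB23-2, 28.8, 30.3 and 32.1 TPM with FB23, and 24.3, 22.8 and 24.6 TPM with DMSO. The log2 fold change was 1.21 ± 0.07 with FB23-2 (2.32-fold, edgeR adjusted p = 2.29e-11), 0.35 ± 0.07 with FB23 (1.27-fold, adjusted p = 0.00237) and 0.87 ± 0.07 between the compounds. Its antisense neighbour ARRDC1-AS1 overlaps the last 29 bases of ARRDC1 and moved the other way with FB23-2. ARRDC1-AS1 stood at 26.5, 26.8 and 26.2 TPM with FB23-2, 41.2, 37.9 and 44.0 TPM with FB23, and 37.6, 42.9 and 38.1 TPM with DMSO. It fell by 0.82 ± 0.08 with FB23-2 (edgeR, adjusted p = 6.81e-08) and was at 0.04 ± 0.08 with FB23, with an interval of -0.12 to 0.21 (adjusted p = 0.742). Within libraries, the ratio of ARRDC1 to ARRDC1-AS1 in TPM was 2.48 ± 0.0611 with FB23-2, 0.742 ± 0.0517 with FB23 and 0.607 ± 0.0658 with DMSO (SD, n = 3 each). The library kit keeps strand, but the strand setting of the counting is not given in the sources used here, so reads from the shared bases cannot be told apart.

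ARRDC2, a relative whose cargo is less well known, was the only one of the 7 genes that fell (chromosome 19, 18001132 to 18014102). Its levels were 19.3, 19.96 and 19.2 TPM with FB23-2, 31.4, 30.6 and 33.2 TPM with FB23, and 36.1, 38.65 and 39.9 TPM with DMSO. Again the FB23 libraries lay between the other groups and overlapped neither. ARRDC2 fell by 1.22 ± 0.07 on the log2 scale with FB23-2 (edgeR, adjusted p = 8.07e-12), to 0.431 of its DMSO level in CPM. With FB23 it fell by 0.28 ± 0.06 (edgeR, adjusted p = 0.00353), and FB23-2 was below FB23 by 0.94 ± 0.06 on the same scale (log2 fold change -0.94).

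The make-up of the arrestin-domain group changed with these shifts. The summed level of TXNIP and the 4 ARRDC genes was 342 to 377 TPM with FB23-2, 177 to 180 TPM with FB23 and 135 to 146 TPM with DMSO. TXNIP took 59.7% to 62.3% of that sum with FB23-2, 53.9% to 56.5% with FB23 and 46.8% to 48.4% with DMSO. ARRDC2 took 5.10% to 5.84% with FB23-2, 17.1% to 18.7% with FB23 and 26.8% to 27.4% with DMSO. The share of ARRDC1 overlapped between all groups, at 17.6% to 19.5%, 16.0% to 18.1% and 16.0% to 18.0% in that order. The TPM ratio of ARRDC4 to ARRDC2, which no library scaling can alter, was 1.40 ± 0.119 with FB23-2, 0.259 ± 0.00751 with FB23 and 0.140 ± 0.0136 with DMSO (SD, n = 3 each). The separation of these ratios follows from that of the genes. An exact permutation test over all 20 splits gave a two-sided p of 0.1 in each of the 3 comparisons. That is the smallest value 3 against 3 libraries allow, so this test could not decide.

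**Figure D3:**
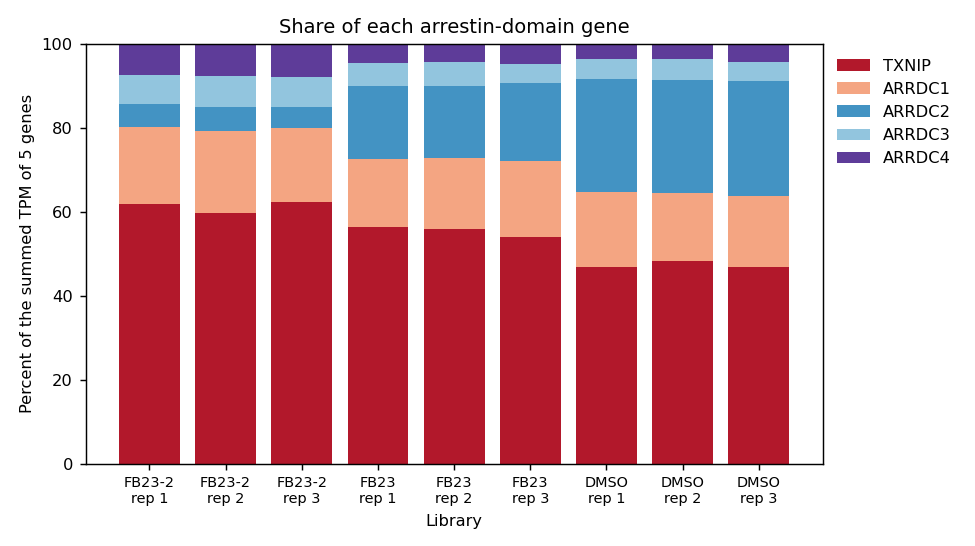
Share of TXNIP and of each ARRDC gene in the summed TPM of the 5 genes (percent, stacked), for the 3 FB23-2, 3 FB23 and 3 DMSO libraries from left to right. The TXNIP part is 59.7% to 62.3% with FB23-2 and 46.8% to 48.4% with DMSO, and the ARRDC2 part 5.10% to 5.84% and 26.8% to 27.4%.

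In order of level, TXNIP came first and MLXIP second in all 3 groups, and MLXIPL last. With FB23-2 the order went on with ARRDC1, ARRDC4, ARRDC3 and ARRDC2, and only ARRDC4 and ARRDC3 overlapped in their libraries. With FB23 it was ARRDC2, ARRDC1, ARRDC3 and ARRDC4, where ARRDC2 overlapped ARRDC1 and ARRDC3 overlapped ARRDC4. With DMSO it was ARRDC2, ARRDC1, ARRDC3 and ARRDC4, with no neighbours overlapping. ARRDC5, the remaining ARRDC gene, had 0 to 2 counts in any library.

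MLXIPL, which encodes ChREBP, had the largest fold change of the 7 genes with FB23-2, from the lowest level. With FB23 it was also the highest in the fit reported, but not on the TPM scale (0.47, against 0.57 for ARRDC4) or without DMSO replicate 3 (0.69, against 0.70). MLXIPL (chromosome 7, 73593194 to 73624543, minus strand) was measured at 14.9, 17.0 and 17.8 TPM with FB23-2, 1.71, 2.38 and 2.53 TPM with FB23, and 1.47, 1.38 and 1.47 TPM with DMSO. The FB23-2 libraries were far above the rest, and FB23 replicate 1, the shallowest library, was close to the DMSO libraries. In expected counts, FB23-2 had 1769 over 3 libraries, FB23 390 and DMSO 151. MLXIPL rose by log2 3.27 ± 0.13 with FB23-2 (9.63-fold, edgeR adjusted p = 8.55e-14) and by 0.68 ± 0.15 with FB23 (1.60-fold, adjusted p = 0.00432). FB23-2 was above FB23 by 2.59 ± 0.11 (edgeR, adjusted p = 3.15e-13). The files list 1 RefSeq accession per gene, and for MLXIPL it is of the noncoding class, so which MLXIPL transcripts the reads came from is not shown.

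MLXIP, which encodes MondoA, was well expressed and changed little (chromosome 12, 122078722 to 122147347). It stood at 76.5, 81.2 and 83.8 TPM with FB23-2, 52.5, 53.3 and 52.2 TPM with FB23, and 47.3, 49.1 and 49.4 TPM with DMSO. MLXIP rose by log2 0.48 ± 0.04 with FB23-2 (1.39-fold, edgeR adjusted p = 3.92e-09), but its sign depends on the processing: with trends on GC content and length removed the value was -0.22 (edgeR, adjusted p = 2.40e-07, and 5.05e-31 to 2.95e-07 over its alternatives). With FB23 it did not pass, at 0.10 ± 0.04 (edgeR, adjusted p = 0.0700, and 0.0260 to 0.201 over its alternatives). FB23-2 was above FB23 by 0.37 ± 0.04, and by -0.29 with those trends removed. MLXIPL stood at 0.205 ± 0.0100 of MLXIP in TPM with FB23-2, at 0.0419 ± 0.00825 with FB23 and at 0.0297 ± 0.00150 with DMSO (SD, n = 3 each).

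MLX, the partner that both Mondo proteins need to bind DNA, fell (chromosome 17, 42567068 to 42573239). Its levels were 25.55, 26.0 and 27.8 TPM with FB23-2, 41.1, 42.9 and 39.6 TPM with FB23, and 49.8, 49.65 and 48.1 TPM with DMSO, with no overlap. MLX fell by 1.15 ± 0.05 on the log2 scale with FB23-2 (edgeR, adjusted p = 5.88e-13) and by 0.27 ± 0.05 with FB23 (adjusted p = 0.000722). The TPM ratio of MLXIP to MLX was 3.04 ± 0.0681 with FB23-2, 1.28 ± 0.0400 with FB23 and 0.989 ± 0.0410 with DMSO (SD, n = 3 each). Of the 8 genes of MLX and the MAX-like network, 4 rose and 2 fell with FB23-2 (3 and 4 with GC and length trends removed), and 2 rose and 3 fell with FB23. Over all tested genes 41.3% moved each way with FB23-2, and 12.3% rose and 11.2% fell with FB23. MXD4 and MXD1, repressor partners of MAX that can also pair with MLX, rose by log2 1.83 ± 0.08 and 1.61 ± 0.07 with FB23-2 and by 0.31 ± 0.09 and 0.28 ± 0.07 with FB23. The FB23 call of MXD4 was lost without DMSO replicate 1 or FB23 replicate 3. The falls of MNT and MGA with FB23 were lost in 11 and 15 of 22 settings, which left 1 fall, that of MLX, without any 1 DMSO library.

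**Figure D4:**
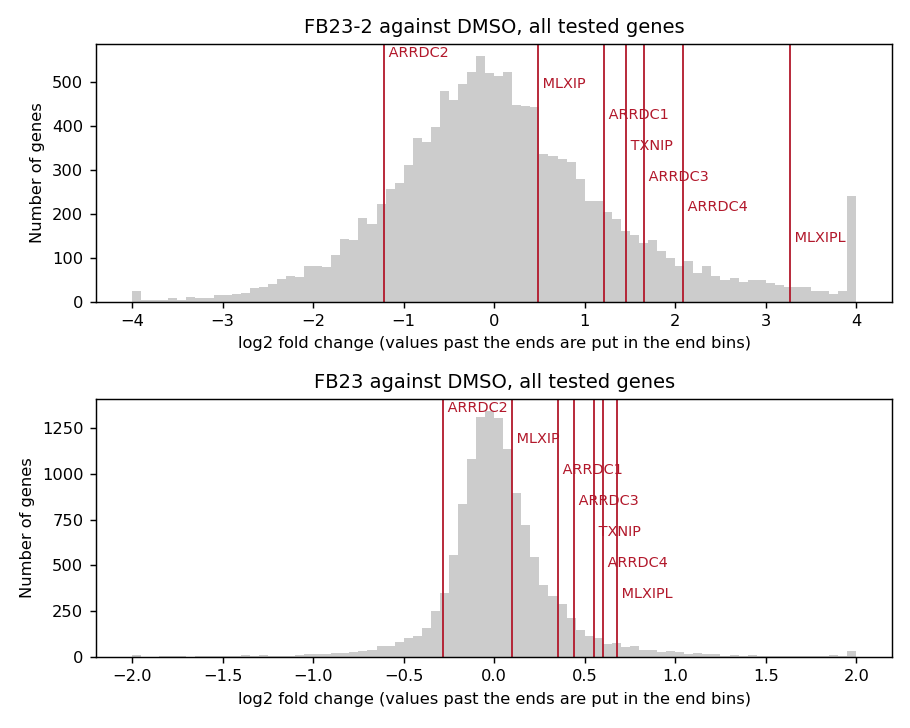
Number of tested genes by log2 fold change (grey bars, 13365 genes) for FB23-2 against DMSO above and FB23 against DMSO below, with the 7 genes as red lines; the axes differ in width. With FB23, MLXIPL (0.68), ARRDC4 (0.60) and TXNIP (0.55) lie in the right tail, and with FB23-2, where all genes spread wider, TXNIP (1.46) lies further in.

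Where the genes lay among all tested genes differed between the compounds. With FB23, 94.8% of tested genes had a lower log2 fold change than TXNIP, 95.5% than ARRDC4, 96.4% than MLXIPL, 92.5% than ARRDC3 and 88.9% than ARRDC1. With FB23-2 the same shares were 86.3% for TXNIP, 92.1% for ARRDC4, 96.9% for MLXIPL, 88.4% for ARRDC3 and 82.9% for ARRDC1. For ARRDC2, 11.8% of tested genes were lower with FB23-2 and 9.35% with FB23. The difference of these places was not tested. Levels in TPM shifted the FB23-2 values upward, to a log2 ratio of mean TPM of 1.71 for TXNIP and -0.97 for ARRDC2, on a scale where the median of all tested genes stood at 0.23 and not at 0.01.

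Thioredoxin, the protein that TXNIP binds, was lower in RNA with FB23-2. TXN was measured at 101 ± 0.911 TPM with FB23-2, 144 ± 23.1 TPM with FB23 and 124 ± 2.30 TPM with DMSO (SD, n = 3 each). It fell by 0.53 ± 0.07 on the log2 scale with FB23-2 (edgeR, adjusted p = 2.17e-06), a call that was lost when GC and length trends were removed (-0.12, edgeR adjusted p = 0.141, and 9.96e-12 to 0.141 over its alternatives). With FB23 it did not pass, at 0.16 ± 0.07 (edgeR, adjusted p = 0.103, and 0.0339 to 0.34 over its alternatives). A rise of TXN with FB23 was called with no filter on low counts, with libraries thinned to the smallest total, and without FB23 replicate 3. There was 2.17 ± 0.135 times as much TXNIP as TXN in TPM with FB23-2, 0.699 ± 0.0884 times with FB23 and 0.537 ± 0.0346 times with DMSO. TXNRD1, the reductase that recharges thioredoxin, rose by log2 0.16 ± 0.04 with FB23-2.

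Of 30 tested genes of the thioredoxin and glutaredoxin system, 10 rose and 19 fell with FB23-2, with a median log2 fold change of -0.37, where 41.3% of all tested genes rose and 41.3% fell. On the TPM scale the count was 11 and 15 and the median -0.13, and with upper-quartile factors the median was -0.20. SRXN1, which repairs overoxidized peroxiredoxins, fell by 1.22 ± 0.05 and PRDX3, the mitochondrial peroxiredoxin, by 1.17 ± 0.05. SESN3, a sestrin of the stress response, rose by log2 3.12 ± 0.13, to 6.40 ± 0.811 TPM with FB23-2, against 0.607 ± 0.151 TPM with DMSO, and NXN, a thioredoxin relative, by 1.50 ± 0.07. With FB23, 8 of the 30 rose and 2 fell, with a median of 0.06, where 12.3% of all tested genes rose and 11.2% fell. Without DMSO replicate 3, 5 rose, and with GC and length trends removed 10 rose and 5 fell. SESN3 rose by 1.21 ± 0.14 and TXNRD3 by 0.51 ± 0.14, while MAP3K5, the kinase ASK1 that thioredoxin holds inactive, fell by 0.47 ± 0.11 and GLRX3 by 0.18 ± 0.04.

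**Figure D5:**
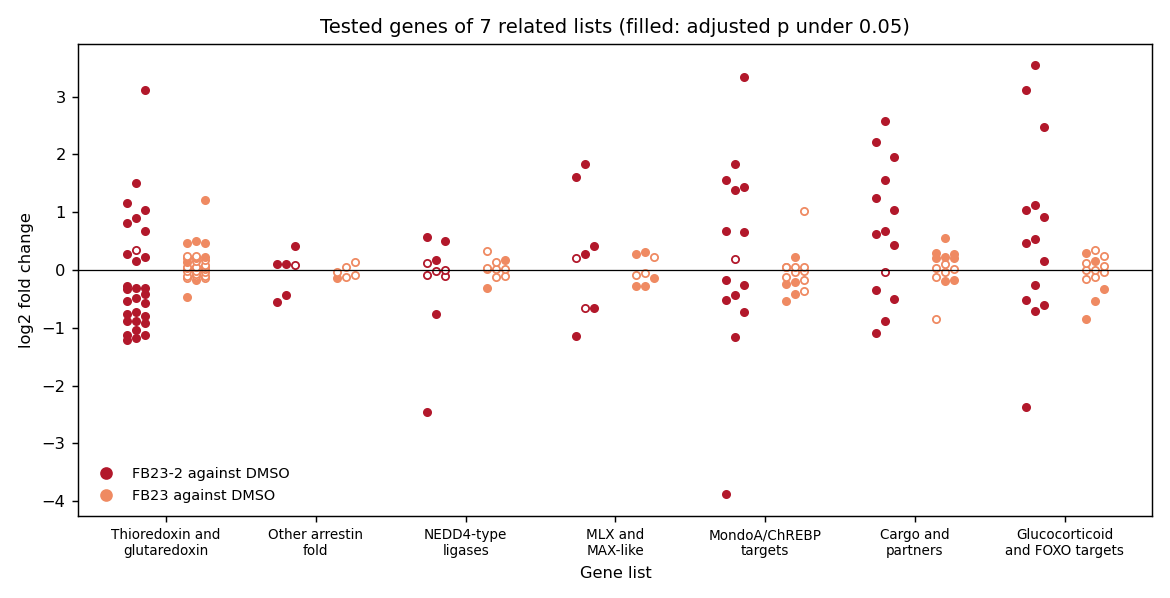
Log2 fold changes of the tested genes of 7 related lists with FB23-2 against DMSO (red, left in each pair) and FB23 against DMSO (orange, right), 3 libraries per group; filled points have an edgeR adjusted p under 0.05 and open points do not. In the thioredoxin list 10 genes rose and 19 fell with FB23-2, and 8 rose and 2 fell with FB23.

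Ubiquitin ligases of the NEDD4 type, which the ARRDC proteins recruit, were counted together with the adaptors NDFIP1 and NDFIP2, and moved in both directions. Of 10 tested genes 3 rose and 2 fell with FB23-2 (median -0.01), where 41.3% of all tested genes moved each way, and the count was 7 and 2 on the TPM scale (median 0.23) and 2 and 4 once GC and length trends were taken out. With FB23 1 rose, NEDD4, and 1 fell, NEDD4L, where 12.3% of all tested genes rose and 11.2% fell. These calls were lost in 13 and 2 of 22 settings. NEDD4 rose by log2 0.57 ± 0.06 with FB23-2 and its adaptor NDFIP2 by 0.50 ± 0.06, whereas WWP2 fell by 0.76 ± 0.07 and HECW2 by 2.46 ± 0.17. The remaining rise with FB23-2 was that of NEDD4L, at 0.17 ± 0.07. It was lost without DMSO replicate 1 or DMSO replicate 3, with no filter, and with libraries thinned to the smallest total. With GC and length trends removed it turned to -0.12. ITCH, a ligase that marks TXNIP for breakdown, did not pass with FB23-2, at -0.11 ± 0.05 with an interval of -0.21 to 0.00 (edgeR, adjusted p = 0.0556). Its sign turned with library totals, upper-quartile factors and TPM, and the fall was called with no filter on low counts, with GC and length trends removed, and without DMSO replicate 3 or FB23-2 replicate 3 (adjusted p from 4.86e-06 to 0.480 over its alternatives). With FB23 it stood at 0.01 ± 0.05, and that value too changed sign in 5 settings. Of 6 other tested genes with an arrestin fold, 3 rose and 2 fell with FB23-2 (0 and 4 of 5 with GC and length trends removed), and 1 rose without DMSO replicate 1, DMSO replicate 2 or FB23-2 replicate 2. Over all tested genes 41.3% moved each way with FB23-2, and 12.3% rose and 11.2% fell with FB23. With FB23 none rose and ARRB1 fell, at -0.14 ± 0.04, a call lost in 10 of 22 settings and without any 1 of the 3 DMSO libraries or FB23 replicate 2. DSCR3, a subunit of an endosomal recycling complex, rose by 0.42 ± 0.05 with FB23-2. ARRB2, a beta-arrestin, fell by 0.55 ± 0.07 and VPS26A, a retromer subunit, by 0.44 ± 0.06 with FB23-2. ARRB1 was at 0.11 ± 0.04 with FB23-2, a call lost without any 1 of the 3 DMSO libraries or FB23-2 replicate 2, and with no filter on low counts. With GC and length trends removed the ARRB1 value turned to -0.47.

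Other genes named in the literature as targets of MondoA or ChREBP moved in both directions. Of 15 tested genes 7 rose and 7 fell with FB23-2 (median 0.19, and -0.16 with GC and length trends removed), and 1 rose and 4 fell with FB23 (median -0.03). Over all tested genes 41.3% moved each way with FB23-2, and 12.3% rose and 11.2% fell with FB23. The FB23-2 median was 0.01 without DMSO replicate 3, 0.32 without DMSO replicate 1 and 0.12 without FB23-2 replicate 1. The acetyl-CoA enzymes ACACB and ACLY rose by log2 1.84 ± 0.16 and 1.55 ± 0.04 with FB23-2. PKLR, the pyruvate kinase of liver and red cells and a classic ChREBP target, fell by 3.88 ± 0.06, to 6.08 ± 0.204 TPM with FB23-2, against 75.7 ± 1.34 TPM with DMSO (SD, n = 3 each), and by 0.54 ± 0.04 with FB23. The erythroid markers given above were also lower with FB23-2, and their part in the PKLR value was not tested. KHK, the fructose kinase, fell by 1.16 ± 0.13 with FB23-2. HK2, a hexokinase, had log2 fold changes of -0.43 ± 0.05 with FB23-2 and -0.42 ± 0.05 with FB23, both called. FASN, fatty acid synthase, rose by 0.68 ± 0.06 with FB23-2, which turned to -0.25 with GC and length trends removed, and by 0.22 ± 0.06 with FB23, a call lost without DMSO replicate 2.

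Cargo and binding partners of TXNIP and the ARRDC proteins included 14 tested genes. Of these 9 rose and 4 fell with FB23-2 (median 0.65), where 41.3% of all tested genes moved each way, or 50.6% rose and 31.9% fell on the TPM scale. With FB23 6 rose and 2 fell (median 0.07), where 12.3% and 11.2% of all tested genes did so. The falls numbered 1 without DMSO replicate 1 or FB23 replicate 3, and 0 on the TPM scale. SLC2A1 encodes a glucose transporter that TXNIP keeps from the surface, and SLC2A3 encodes another glucose transporter. They rose by log2 1.04 ± 0.05 and 1.96 ± 0.05 with FB23-2 and by 0.20 ± 0.05 and 0.22 ± 0.04 with FB23. The FB23 call of SLC2A1 was lost without DMSO replicate 2. NOTCH1, a receptor sorted with the help of ARRDC1, rose by 2.57 ± 0.07 with FB23-2 and 0.55 ± 0.07 with FB23. DDIT4 (REDD1), an inhibitor of mTOR signalling that forms a complex with TXNIP, rose by 2.22 ± 0.07 with FB23-2. TSG101, which ARRDC1 binds, rose by 0.30 ± 0.06 with FB23. USP7, a deubiquitinase, fell by 1.09 ± 0.04 and SLC11A2, a metal transporter, by 0.88 ± 0.06 with FB23-2.

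The list of glucocorticoid and FOXO targets, among which TXNIP and ARRDC2 are often found, was split. It also holds NR3C1, the glucocorticoid receptor gene, and FOXO1, FOXO3 and FOXO4 themselves, so its counts are not of targets alone. Of 14 tested genes of the list, 9 rose and 5 fell with FB23-2 (median 0.49), and 2 rose and 3 fell with FB23 (median 0.00). With FB23-2, FOXO1, FOXO3 and FOXO4 rose by log2 1.12 ± 0.12, 0.46 ± 0.04 and 0.53 ± 0.07. NR3C1 fell by 0.26 ± 0.08, a call lost on the TPM scale and with library totals or upper-quartile factors. None of them was called with FB23. Over all tested genes 41.3% moved each way with FB23-2, and 12.3% rose and 11.2% fell with FB23. On the TPM scale 3 fell with FB23-2, and the median was 0.14 with GC and length trends removed. The FB23 rises, of DUSP1 and FKBP5, were both lost without DMSO replicate 3, and that of DUSP1 also without DMSO replicate 2 or FB23 replicate 3. TSC22D3 (GILZ) rose by log2 3.54 ± 0.10, to 31.3 ± 1.60 TPM with FB23-2, against 2.27 ± 0.290 TPM with DMSO, and PDK4, a brake on pyruvate oxidation, by 3.12 ± 0.15. KLF15 fell by 2.38 ± 0.22 and KLF9 by 0.71 ± 0.06. With FB23, TSC22D3 did not pass, at -0.04 ± 0.14 with an interval of -0.33 to 0.26 (edgeR, adjusted p = 0.894). ZBTB16 fell by 0.85 ± 0.16 and SGK1 by 0.53 ± 0.09 with FB23. With FB23-2, SGK1 rose by 0.91 ± 0.08 and FKBP5 fell by 0.61 ± 0.05, each opposite to its direction with FB23. DUSP1 rose by 2.48 ± 0.09 and ZBTB16 fell by 0.52 ± 0.16 with FB23-2, the same directions as with FB23. That ZBTB16 call was lost on the TPM scale and with upper-quartile factors.

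The genes whose profile over the 9 libraries was most like each of the 7 were found by the root mean square difference of centred log2 CPM among 11431 genes. For TXNIP they were UGGT2 and CSRNP2, each at 0.07, and TCAF1 at 0.09. ARRDC4 was nearest to CLTCL1, a clathrin heavy chain, at 0.07, and ARRDC3 to GOLGB1, a Golgi protein, at 0.05. ARRDC1 was near to RRNAD1 and to HEXIM1, an inhibitor of transcription elongation, each at 0.05. ARRDC2 was nearest to SGTA, a co-chaperone, at 0.04, MLXIP to CIT, a kinase of cell division, at 0.02, and MLXIPL to TMSB10, an actin-binding peptide, at 0.15. Among the 7 themselves the closest pair was TXNIP and ARRDC3, at 0.14, and 109 other genes were nearer to TXNIP than that. MLXIPL and ARRDC2 were farthest apart, at 1.93.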

How the data were processed

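The deposited tables hold RSEM expected counts, per the file headers. Version 1.2.31 of RSEM and build GRCh38 come from the submitters' processing notes. TPM in the deposited tables is RSEM's abundance per gene length, and the deposited FPKM values were left aside. Neither the aligner nor the annotation release or strand setting is stated by these sources.

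Rounded expected counts were fitted with edgeR 4.0.16 (R 4.3.3), using filterByExpr (minimum count 10, minimum total 15), TMM factors and 1 mean per group over all 9 libraries. The quasi-likelihood F test was two-sided, with Benjamini-Hochberg adjustment over 13365 genes in each of 3 comparisons, and a gene is called, as rising or falling, at an adjusted p under 0.05. Errors of log2 fold changes are standard errors, and intervals are 95%. The common biological coefficient of variation was 5.12%.

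The 7 genes and the 7 related lists were chosen with earlier results of these data known. From each list the text names some of the 2 highest and 2 lowest called genes (average log2 CPM 1 or more), and always MLX, TXN, TXNRD1, ITCH, SLC2A1 and HK2. SLC2A3, NR3C1, FOXO1, FOXO3, FOXO4, NEDD4L with FB23-2, TSC22D3 with FB23 and MGA with FB23 were added after their values were seen. The values of FASN, SGK1, FKBP5, DUSP1 and ZBTB16 with FB23-2 also lie outside that rule. Alternatives used limma 3.58.1, DESeq2 1.42.0 and other scalings, filters and sets of libraries. Coordinates are from GENCODE 29. Precision is limited by counts for MLXIPL, at 42 to 199 counts per FB23 or DMSO library.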

Additional observations from a re-analysis of the deposited data

How the results depend on the processing

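Each comparison was refitted in 23 other ways, 9 of which left out 1 library. With FB23-2 against DMSO, TXNIP, MLXIPL and the 4 ARRDC genes kept their direction and their call in all 23. With FB23 against DMSO those 6 genes kept both in all but one that also asks for a log2 fold change of at least 1 either way, with TXNIP between 0.53 and 0.59, ARRDC4 between 0.53 and 0.70 and MLXIPL between 0.47 and 0.77. Leaving out any library gave 7 genes called with FB23-2 against DMSO, 6 with FB23 against DMSO and 7 between the compounds. Over all genes, those fits called 10740 to 11293, 2096 to 3304 and 10556 to 10980 in the same order, of 13465 to 13594 tested. The MLXIP value was reversed by removing GC and length trends, to -0.22 with FB23-2 against DMSO and -0.29 with FB23-2 against FB23. The cause was not tested. With FB23, MLXIP passed with library totals (0.13, edgeR adjusted p = 0.0260) and limma-voom (0.10, adjusted p = 0.0498), and ran from 0.0260 to 0.201 over all alternatives.

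Asking for a log2 fold change of at least 1 either way lowered the counts by construction. It left 6 of the 7 genes with FB23-2 against DMSO, 0 with FB23 and 3 between the compounds. Over all genes it left 4913 with FB23-2, 155 with FB23 and 4300 between the compounds, and of the related lists 32, 1 and 26 genes. Library totals and upper-quartile factors put the median of all genes at 0.16 and 0.18 with FB23-2 against DMSO, and TPM put it at 0.23, where the fit reported had 0.01. Of calls with FB23-2, 61.3% were higher on the TPM scale and 50% in the fit reported. Of calls with FB23, 66.1% were higher with no filter on low counts and 41.2% with GC and length trends removed, against 52.4% in the fit reported.

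Replicates share numbers in the labels, but the deviations of same-numbered libraries correlated at -0.18 to 0.09, with 0 of 9 pairs over 0.1, so the numbers were not treated as pairs. With the replicate number as a block, 7, 6 and 7 of the genes were called in the 3 comparisons, as without it, and 10883, 2504 and 10705 of all genes. MLXIPL had the fewest counts of the 7 genes, at 151 over the 3 DMSO libraries and 390 over the 3 FB23 libraries.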

Other observations

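Beta-arrestins and visual arrestins give a scale for the arrestin-domain genes. ARRB1 stood at 56.0 ± 1.18 TPM with FB23-2, 39.9 ± 0.640 TPM with FB23 and 43.5 ± 0.310 TPM with DMSO, and ARRB2 at 19.8 ± 0.716, 23.4 ± 0.421 and 24.5 ± 0.601 TPM (SD, n = 3 each). By mean TPM, TXNIP was the gene of rank 500 in the whole file with FB23-2, of rank 1421 with FB23 and of rank 2146 with DMSO. MLXIPL moved over ranks 6541, 10611 and 11121 in the same order of groups. Neither SAG nor ARR3, the arrestins of the retina, had enough counts to be tested.

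The counts of TXNIP and of the 4 ARRDC genes were deep enough that counting error is small beside the changes. TXNIP had 2060 to 9561 expected counts per library, and the ARRDC genes 224 to 2044.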
